A study of Mus musculus with 24 samples.

Results

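The brain transcriptome of C57BL/6J male mice on a diet with 0 ppm selenium was set against that of mice on a diet with 2.25 ppm, the ends of a series of 4 diets. Mice had eaten normal chow up to 8 weeks of age and then received their diet for 5 weeks, after which total RNA of the whole brain was sequenced. All groups shared strain, sex and age, and no gross pathology was recorded. The comparison rests on 6 of the 24 libraries of the study, 3 at 0 ppm and 3 at 2.25 ppm. The 3 brain libraries at 0.1 ppm and the 3 at 0.4 ppm, and the liver libraries of the same diets, are given only where they bear on it. A gene was kept where its normalized read count reached 1 in at least 3 of the 6 libraries, which held for 20689 of 21894 genes. Values below are normalized read counts, that is, reads divided by a single factor for each library. Nothing in the labels says that each library is a separate animal, so a p-value here speaks only to library-to-library spread, part of which may be technical.

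Selenium acts in mammals mainly as selenocysteine, an amino acid built into a small family of selenoproteins that includes glutathione peroxidases, thioredoxin reductases and iodothyronine deiodinases. The liver packs selenium into selenoprotein P, which is secreted into plasma and taken up in the brain through the receptor Lrp8. When selenium is short the brain is known to hold on to it better than the liver, and within a tissue the transcripts of some selenoproteins, such as Gpx1 and Selenow, are degraded more readily than others. Expression of the family therefore serves as a readout of selenium supply.

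Between 13.39 and 14.96 M reads fell on genes in each of the 6 libraries, and 3 reads corresponded to a normalized count of 1.99 to 2.28. Neuronal markers were present throughout, with 15 of 15 listed pan-neuronal genes measured and a summed count of 83982 to 93841 at 0 ppm and 92924 to 95138 at 2.25 ppm. Library a of 0 ppm stood apart in pituitary transcripts: growth hormone, Gh, was at 73058 there and at 90.4 and 5.96 in the other libraries of that diet, against 0.723, 5.64 and 0 at 2.25 ppm. Prolactin, Prl, was at 8422, 13.6 and 0 at 0 ppm and at 0 in each library of 2.25 ppm. One 0.1 ppm library, outside the comparison, was also rich in them. Albumin, Alb, the main plasma protein made by liver, was at 71.4, 61.8 and 57.6 at 0 ppm and at 1.45, 10.6 and 0 at 2.25 ppm. Alb thus separated the groups completely. So did the sum of listed liver transcripts without Ttr, at 281 to 324 at 0 ppm and 112 to 162 at 2.25 ppm. The sum with Ttr overlapped. Of 25 listed liver genes, 19 had all 0 ppm libraries above those of 2.25 ppm, beside 5.87% of all genes. A gene under 1 in every 2.25 ppm library could be kept only if it lay wholly above. All 25 listed genes with values were kept, so the filter took none out. The list was drawn up with earlier results of these data known, so the count only describes these libraries. At 0.4 ppm, Alb was at 47.5 in library a and at 0 and 1.56 in libraries b and c, so libraries of that diet lay on both sides. How liver transcripts came into these libraries was not tested, and for low liver-type transcripts their presence cannot be told apart from diet. Any other difference between libraries that goes with this split cannot be told apart from diet in this comparison either.

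**Figure D1:**
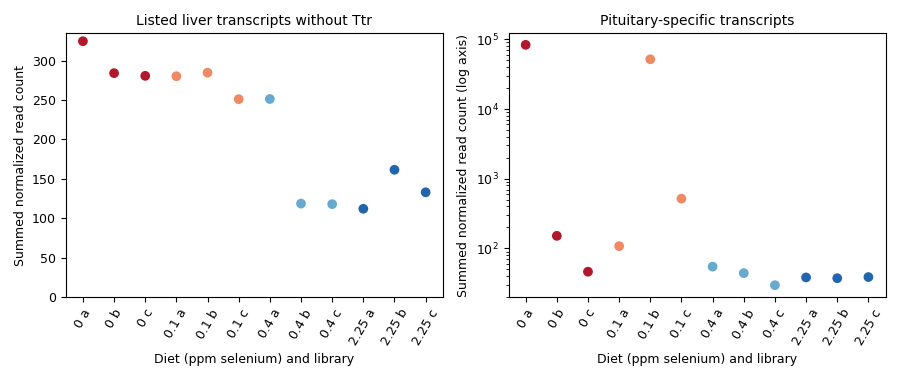
Summed normalized read counts of the listed liver transcripts other than Ttr (left, linear axis from 0) and of the pituitary-specific transcripts (right, log axis) in each of the 12 brain libraries, from 0 ppm to 2.25 ppm. The liver sum was 281 to 324 in the 0 ppm libraries and 112 to 162 in the 2.25 ppm libraries. In libraries a, b and c it was 280, 285 and 251 at 0.1 ppm and 251, 119 and 118 at 0.4 ppm. The pituitary sum of 83249 in library a of 0 ppm was approached only by 51716 in library b of 0.1 ppm.

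Fmo2 was the only gene that passed the test. This gene encodes flavin-containing monooxygenase 2, an enzyme that uses NADPH and oxygen to oxidise soft sulfur- and nitrogen-containing compounds. It was at 20.5, 21.1 and 22.5 in the 0 ppm brains, against 68.0, 64.9 and 58.2 in the 2.25 ppm brains. The 3 deficient libraries lay close together and far below the 3 supplemented ones. The means were 21.4 ± 1.02 and 63.7 ± 4.98 (SD, n = 3 each), so Fmo2 fell at 0 ppm by 1.53 on the log2(value + 1) scale, with an SE of 0.13 and a 95% confidence interval from -1.81 to -1.25 (adjusted p = 0.00043, limma). Across the series the counts were 20.5 to 22.5 at 0 ppm, 41.2 to 47.9 at 0.1 ppm, 75.8 to 81.1 at 0.4 ppm and 58.2 to 68.0 at 2.25 ppm, and no library of one diet overlapped another. In whole tissue, fewer cells of a type that carries a transcript and less of it per cell cannot be told apart.

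The single call was 0.00483% of the 20689 genes tested by limma, and edgeR's quasi-likelihood test on the reads recovered from the counts also called Fmo2 alone (adjusted p = 0.000945). At an unadjusted p under 0.05 there were 1633 genes by limma, or 7.89%, and 1582 by edgeR. By limma, 720 of these were higher at 0 ppm (3.48%) and 913 were lower (4.41%). The call on Fmo2 held without library a of 0 ppm, the one rich in pituitary transcripts, with a log2 change of -1.502 and an adjusted p of 0.00444 in limma. It was lost when the 6 libraries were fitted without the other 6 brain libraries, with the same log2 change of -1.53 and an adjusted p of 0.103 in limma. In the authors' deposited table the p-value of Fmo2 was 0.000135, unadjusted.

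Fmo2 lies on the minus strand of chr1:162874317-162898726 (mm10) as a protein-coding gene. Of the 2 starts that RefSeq lists for it, the bases before the one nearer to the annotated gene are shown because this is the gene that moved with the diet. They cover chr1:162898759-162899008 (GRCm38.p6, the assembly behind mm10), minus strand, before the annotated exons, and are credited to RefSeq.
Fmo2: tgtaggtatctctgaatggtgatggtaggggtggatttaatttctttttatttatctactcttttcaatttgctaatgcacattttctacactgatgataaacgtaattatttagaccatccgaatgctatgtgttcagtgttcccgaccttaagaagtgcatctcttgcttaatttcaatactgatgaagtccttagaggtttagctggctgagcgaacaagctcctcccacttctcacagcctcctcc
The window was searched on both strands for the E-box CACGTG and the D-box TTATGTAA, the elements shown further on for clock genes, and held neither, so nothing is in capitals. The E-box stood in 6.02% of all 32851 promoter windows of this length and the D-box in 0.819%.

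**Figure D2:**
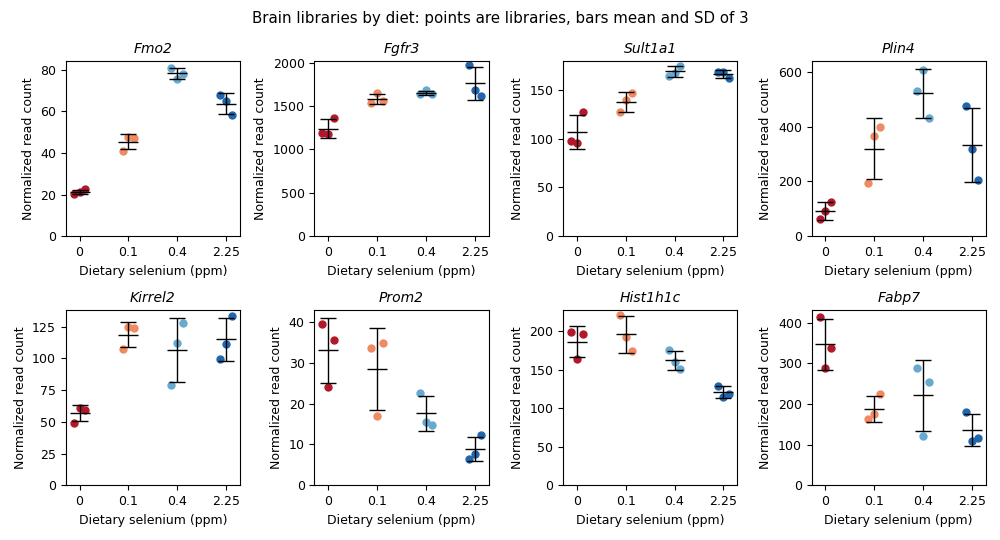
Normalized read counts (linear axes from 0) of 8 genes in the 12 brain libraries against dietary selenium, from 0 to 2.25 ppm; points are libraries and bars the mean and SD of 3. Fmo2 at 0 ppm (20.5 to 22.5) lies below every other library, and it is the only one of these genes that passed the test between 0 and 2.25 ppm.

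The genes with the smallest p after Fmo2 had adjusted p-values from 0.15 to 0.244 in limma and did not pass. Fgfr3, the fibroblast growth factor receptor enriched in astrocytes, was at 1183, 1174 and 1362 at 0 ppm, against 1972, 1688 and 1621 at 2.25 ppm. Its log2 change was -0.50, with a confidence interval from -0.67 to -0.34 and an adjusted p of 0.15 in limma. Sult1a1, a sulfotransferase of phenolic compounds, was at 97.3, 95.7 and 127 in the 0 ppm brains and 168, 169 and 162 in the 2.25 ppm brains. Library c of 0 ppm was the highest of its group in both genes, and so the nearest to the 2.25 ppm libraries. Without it limma called 3 genes: Fmo2, Sult1a1 (log2 change -0.78, adjusted p = 0.0257) and Fgfr3 (-0.57, adjusted p = 0.042). Without any other single library of 0 or 2.25 ppm, neither Sult1a1 nor Fgfr3 was called. Their adjusted p-values in limma were then 0.255 to 0.706 for Sult1a1 and 0.131 to 0.706 for Fgfr3.

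Plin4, a perilipin that coats lipid droplets, was at 61.6, 91.2 and 126 at 0 ppm and 474, 319 and 206 at 2.25 ppm. The groups did not overlap, although the 2.25 ppm libraries spread widely, and the log2 change was -1.81 with an interval from -2.50 to -1.12. Kirrel2, an adhesion protein of the immunoglobulin superfamily, was at 49.4, 61.0 and 59.6 at 0 ppm and 99.8, 111 and 134 at 2.25 ppm, while the 0.1 and 0.4 ppm libraries lay at 78.9 to 128. Eogt, which adds N-acetylglucosamine to EGF-like domains in the endoplasmic reticulum, averaged 323 ± 12.03 at 0 ppm and 418 ± 21.3 at 2.25 ppm. Slc38a2, a carrier of small neutral amino acids, averaged 2293 ± 129 at 0 ppm and 3008 ± 292 at 2.25 ppm (SD, n = 3 each). Fbxw23, an F-box protein, was at 3.8, 7.53 and 9.26 at 0 ppm and 38.3, 27.5 and 19.4 at 2.25 ppm, which at this depth is few reads.

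Among genes with higher counts at 0 ppm, Hist1h1c, a linker histone, was at 199, 163 and 197 at 0 ppm and 129, 115 and 119 at 2.25 ppm, a log2 change of 0.62 with an interval from 0.37 to 0.86. Fabp7, the fatty acid-binding protein of radial glia and astrocytes, was at 415, 289 and 338 at 0 ppm, against 180.0, 110.0 and 117 at 2.25 ppm. Its 0.1 ppm libraries lay at 163 to 225 and its 0.4 ppm libraries at 121 to 288. Prom2, a membrane protein of the prominin family, was at 39.5, 24.1 and 35.7 at 0 ppm and 6.51, 7.76 and 12.2 at 2.25 ppm. Yif1a, a protein of traffic between the endoplasmic reticulum and the Golgi, averaged 136 ± 8.56 and 97.6 ± 3.16, and Lgals9, the lectin galectin-9, averaged 70.0 ± 0.829 and 41.7 ± 3.16 (0 ppm and 2.25 ppm, SD, n = 3 each). Lgals9 is among the genes whose liver level was 100 or more times that of brain, with liver means of 10078 ± 1452 at 0 ppm and 6642 ± 51.6 at 2.25 ppm (SD, n = 3 each), and the part of liver RNA in its brain values was not tested. None of these passed the test. Pnpla1, of the patatin-like phospholipase family, was at 6.08, 5.27 and 3.31 at 0 ppm and 0, 0.705 and 0 at 2.25 ppm. The pseudogene Apoo-ps was at 6.08, 3.01 and 1.32 at 0 ppm and at 0 in each 2.25 ppm library. Pnpla1 and Apoo-ps were under 1 in every 2.25 ppm library and passed the filter only through their 0 ppm libraries. Their separation is therefore set by the filter. Serpina1e, an alpha-1-antitrypsin gene of liver with near-identical copies between which reads can be split, was at 6.84, 13.6 and 7.94 at 0 ppm, against 0, 1.41 and 0 at 2.25 ppm, and belongs with the liver transcripts above.

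**Figure D3:**
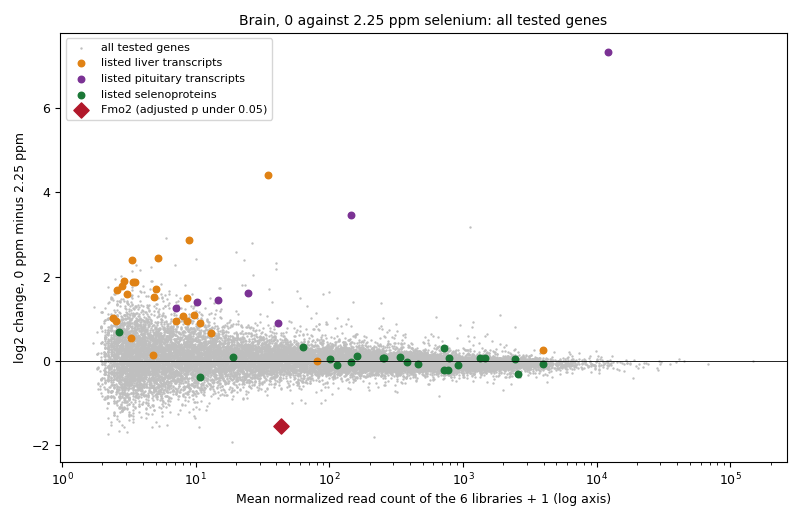
Mean normalized read count of the 6 libraries plus 1 (horizontal, log axis) against the log2 change, 0 ppm minus 2.25 ppm (vertical), for the 20689 tested genes. Fmo2 (diamond) lies at -1.53, and other genes reach -1.92 without passing the test. Selenoproteins lie from -0.38 for Selenov to 0.70 for Gpx2. The listed liver and pituitary transcripts lie at or above 0, up to 4.40 for Alb and 7.32 for Gh.

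Most selenoprotein transcripts differed little between the brains. Of 24 listed selenoprotein genes 23 could be tested, and 0 passed in either limma or edgeR. At an unadjusted p under 0.05 in limma there were 2, both lower at 0 ppm, beside 4.41% of all genes. The median log2 change was 0.06, against -0.01 over all genes tested, and the summed count was 17413 to 18074 at 0 ppm and 17907 to 18645 at 2.25 ppm. The libraries of 2 members at 0 ppm lay wholly below those at 2.25 ppm and those of 1 wholly above, beside 7.11% and 5.87% of all tested genes.

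Selenow, a small thioredoxin-like selenoprotein of brain and muscle, was at 2367, 2407 and 2180 in the 0 ppm brains and at 2772, 2828 and 2957 in the 2.25 ppm brains. The groups did not overlap, and the log2 change of -0.30 had an interval from -0.45 to -0.15 (adjusted p = 0.402 in limma). Txnrd1, the cytosolic thioredoxin reductase, was at 661, 699.9 and 645 at 0 ppm and 766, 780.0 and 774 at 2.25 ppm, also without overlap, with a log2 change of -0.21, an interval from -0.34 to -0.08 and an adjusted p of 0.468. Selenom, a selenoprotein of the endoplasmic reticulum, was the one above, at 687, 735 and 964 at 0 ppm against 641, 569 and 686 at 2.25 ppm, with an interval from -0.01 to 0.64.

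Gpx1, the cytosolic glutathione peroxidase that degrades hydrogen peroxide, was at 472, 413 and 449 at 0 ppm and at 485, 455 and 459 at 2.25 ppm. The values overlapped, and the log2 change of -0.07 had an interval from -0.23 to 0.09. Gpx4, which reduces lipid hydroperoxides, averaged 1487 ± 106 at 0 ppm and 1417 ± 74.7 at 2.25 ppm, with an interval from -0.09 to 0.23. Selenop, the selenium carrier, averaged 3834 ± 298 at 0 ppm and 4045 ± 433 at 2.25 ppm, with an interval from -0.26 to 0.11. Selenoh, a nuclear selenoprotein, averaged 109 ± 9.13 at 0 ppm and 117 ± 5.38 at 2.25 ppm, with an interval from -0.33 to 0.13. Dio2, the deiodinase that forms active thyroid hormone in astrocytes, was at 791, 873 and 509 at 0 ppm and 829, 796 and 818 at 2.25 ppm, with library c of 0 ppm low.

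In liver, where limma called 1297 of 17991 genes (7.21%) between the same diets, the contrast was larger for 4 of these genes, by a test of the difference between the tissues themselves. The log2 change of Gpx1 was -0.07 in brain and -1.44 in liver, where its means were 10497 ± 1028 at 0 ppm and 28382 ± 236 at 2.25 ppm, and the tissue difference of 1.37 had an adjusted p of 6.05e-08 in limma. Selenow changed by -0.30 in brain and -1.71 in liver, a difference of 1.41 with the same adjusted p. For Selenop the difference was 0.59 (adjusted p = 0.00907) and for Selenoh 0.81 (adjusted p = 0.0274). The call on Selenoh was lost without any one of 5 libraries, with an adjusted p of up to 0.0742 in limma. The Txnrd1 changes, -0.21 in brain and -0.27 in liver, differed by 0.06 with an SE of 0.10 (adjusted p = 0.832). Over all genes measured in both tissues, 454 of 16915 differed between brain and liver (2.68%), 292 with the more positive change in brain and 162 with the more negative one. Fmo2 was lower at 0 ppm in both: in liver it averaged 253 ± 99.7 at 0 ppm and 597 ± 87.0 at 2.25 ppm, with a log2 change of -1.31 (adjusted p = 0.0313), and brain minus liver was -0.22 with an SE of 0.40 (adjusted p = 0.852). Sult1a1 likewise gave 0.35 for brain minus liver, with an SE of 0.15 (adjusted p = 0.263 in limma).

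**Figure D4:**
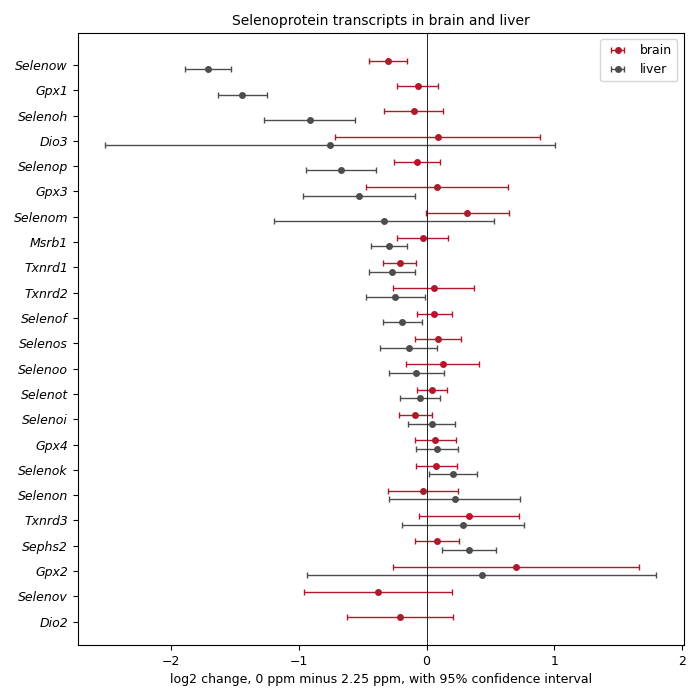
Log2 change, 0 ppm minus 2.25 ppm, with 95% confidence interval for the selenoproteins tested in brain (red, upper point of each pair) and in liver (grey, lower point); Selenov and Dio2 were tested in brain only. Gpx1, Selenow, Selenoh and Selenop lie far to the left in liver (-0.67 to -1.71) and between -0.30 and -0.07 in brain.

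Over all 57 lists, 897 genes were tested. Of these, 0 were called by limma and 0 by edgeR, and 95 had an unadjusted p under 0.05 in limma, beside 7.89% of all genes. The lists were drawn up with earlier results of these data known. List shares set beside the share of all genes, above and below, are therefore descriptive and not an independent comparison. All 14 genes of the machinery that makes and inserts selenocysteine were tested, with a median log2 change of 0.00, from -0.41 to 0.21. Of 17 antioxidant enzymes and partners, 2 had 0 ppm libraries wholly above, beside 5.87% of all genes, and the median was 0.07. One was Txnip, the inhibitor of thioredoxin, at 505, 291 and 259 at 0 ppm and 203, 205 and 199 at 2.25 ppm (adjusted p = 0.407 in limma). Library a of 0 ppm was far above the others for it. Of 25 tested targets of NRF2, the factor that switches on detoxification genes, 2 lay wholly below, beside 7.11% of all genes, and 1 wholly above, beside 5.87%, with a median of -0.01. The 19 glutathione genes had a median of 0.03, with 3 wholly below and 2 above, beside the same 7.11% and 5.87%.

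Clock genes form the feedback loop that times daily rhythm, in which the activators Clock and Arntl bind E-boxes and Per and Cry proteins repress them. Of 20 tested, 0 were called by limma, 5 had all 0 ppm libraries below the 2.25 ppm ones, beside 7.11% of all genes, and 0 had them all above, beside 5.87%. The median was -0.11, against -0.01 over all genes. Like the other lists, this one was drawn up with earlier results known, so these shares are descriptive. At an unadjusted p under 0.05 in limma, 6 were lower at 0 ppm, beside 4.41% of all genes, and 1 was higher, beside 3.48%. The summed list overlapped, at 18513, 19626 and 18703 at 0 ppm and 19257, 21540 and 22576 at 2.25 ppm. Per2, a core repressor, was at 416, 578 and 449 at 0 ppm, against 727, 853 and 957 at 2.25 ppm. Its log2 change was -0.82, with an interval from -1.18 to -0.46 (adjusted p = 0.244 in limma), and the 0.1 and 0.4 ppm libraries lay at 428 to 727 and at 793 to 849. Bhlhe41, a repressor that binds E-boxes, was at 368, 386 and 396 at 0 ppm and 514, 462 and 482 at 2.25 ppm. Tef, an activator that binds D-boxes, was at 3502, 3592 and 3897 at 0 ppm, against 4206, 4595 and 4861 at 2.25 ppm. Per3 was at 663, 616 and 745 at 0 ppm and 798, 882 and 829 at 2.25 ppm. The time of day at which each brain was taken is not given in the sources used here, and its part in these values was not tested.

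Promoter windows of 2 of these genes are shown for the elements through which the clock acts, with the bases before the annotated exons credited to RefSeq (GRCm38.p6). Bhlhe41 covers chr6:145865559-145865670 on the minus strand, with its E-box CACGTG in capitals, starting 153 bases before the RefSeq start. Per3 covers chr4:151044666-151044915 on the minus strand, with 2 D-boxes in capitals, both reading TTATGTAA, starting 205 and 158 bases before the start.
Bhlhe41: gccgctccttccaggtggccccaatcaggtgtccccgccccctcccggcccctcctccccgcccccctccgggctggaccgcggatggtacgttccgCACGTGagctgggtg
Per3: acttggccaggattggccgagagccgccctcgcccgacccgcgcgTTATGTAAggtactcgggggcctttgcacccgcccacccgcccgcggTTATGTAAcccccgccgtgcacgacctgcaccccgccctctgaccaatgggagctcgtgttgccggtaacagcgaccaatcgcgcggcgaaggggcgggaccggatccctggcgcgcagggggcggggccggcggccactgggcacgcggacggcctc
Of 20 listed clock genes 17 matched the promoter table, with 23 windows, of which 6 held the E-box and 1 the D-box, beside 6.02% and 0.819% of all windows. These matches describe letters in the windows and were not tested for binding.

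Of 18 genes known to respond to glucocorticoids, 0 passed, 3 lay wholly below at 0 ppm (beside 7.11%) and 0 above, with a median of -0.03. The 3 were Sult1a1 and Plin4, described above, and Fkbp5, a chaperone that damps the glucocorticoid receptor, at 398, 411 and 323 at 0 ppm and 541, 529.6 and 473 at 2.25 ppm. Fkbp5 had an adjusted p of 0.54 in limma, and its 0.1 ppm libraries ran from 358 to 611, across both groups.

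Endothelial and mural markers that separated the groups all lay below at 0 ppm, and glial markers lay on either side. Of 12 mural markers, 3 lay wholly below, beside 7.11% of all genes, and 0 above, beside 5.87%. Their median was -0.01, with 6 log2 changes above 0 and 6 below. Of 16 endothelial markers, 3 lay wholly below at 0 ppm, beside 7.11% of all genes, and 0 above, beside 5.87%; 0 passed, and the median was -0.06. All 3 are transporters of the blood-brain barrier. Mfsd2a, the carrier of lysophospholipids with docosahexaenoic acid, was at 238, 228 and 274 at 0 ppm and 426, 324 and 358 at 2.25 ppm, with a log2 change of -0.58, an interval from -0.83 to -0.32 and an adjusted p of 0.244 in limma. The drug efflux pump Abcb1a averaged 448 ± 69.8 and 556 ± 9.65 and the organic anion carrier Slco1a4 702 ± 109 and 872 ± 19.2 (0 ppm and 2.25 ppm, SD, n = 3 each). The summed endothelial list was 6056 to 6554 at 0 ppm and 6569 to 7540 at 2.25 ppm, so it too did not overlap. How far it carries the values of single members was not tested.

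Of 16 astrocyte markers, 3 lay wholly below (among them Fgfr3 and the gap junction protein Gjb6), beside 7.11% of all genes, and 1 above, beside 5.87%, with a median of 0.00. Gjb6 averaged 767 ± 30.8 at 0 ppm and 911 ± 117 at 2.25 ppm. The one above was Aqp4, the water channel of astrocyte end feet, at 2180, 2360 and 2222 at 0 ppm and 2011, 1578 and 1813 at 2.25 ppm (adjusted p = 0.54 in limma). Of 12 genes of oligodendrocyte precursors, 4 lay wholly below and 2 above, beside the same 7.11% and 5.87%, with a median of -0.11. Gpr17, a receptor of cells about to mature, was at 383, 551 and 409 at 0 ppm and 656, 610.0 and 655 at 2.25 ppm, and Neu4, a sialidase, at 87.4, 124 and 101 at 0 ppm, against 142, 128 and 143 at 2.25 ppm. On the other side stood Enpp6, a choline phosphodiesterase of newly formed oligodendrocytes, at 137, 163 and 149 at 0 ppm and 111, 111 and 103 at 2.25 ppm, and the transcription factor Olig1, at 1182 ± 60.4 and 988 ± 106 (0 ppm and 2.25 ppm). Adjusted p-values of these 4 were 0.396 to 0.518 in limma.

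Of 20 genes of cholesterol metabolism, 0 passed, 5 lay wholly above at 0 ppm, beside 5.87% of all genes, and 0 below, with a median of 0.18 against -0.01 over all genes. The summed list was 15711, 15696 and 12616 at 0 ppm and 12920, 13635 and 12843 at 2.25 ppm, so library c of 0 ppm lay below all of the 2.25 ppm libraries. Insig1, which holds the sterol sensor in the endoplasmic reticulum, was at 981, 814 and 759.7 at 0 ppm, against 688, 660.1 and 645 at 2.25 ppm. Its log2 change of 0.35 had an interval from 0.14 to 0.56 (adjusted p = 0.468 in limma). The pathway enzyme Mvd averaged 199 ± 29.7 and 151 ± 11.5 (0 ppm and 2.25 ppm, SD, n = 3 each). Stard4, a sterol carrier, averaged 478 ± 35.2 at 0 ppm and 418 ± 41.6 at 2.25 ppm. In liver Insig1 was lower at 0 ppm, with a log2 change of -0.80 (adjusted p = 0.0125), and brain minus liver was 1.15 (adjusted p = 0.00613, both limma).

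**Figure D5:**
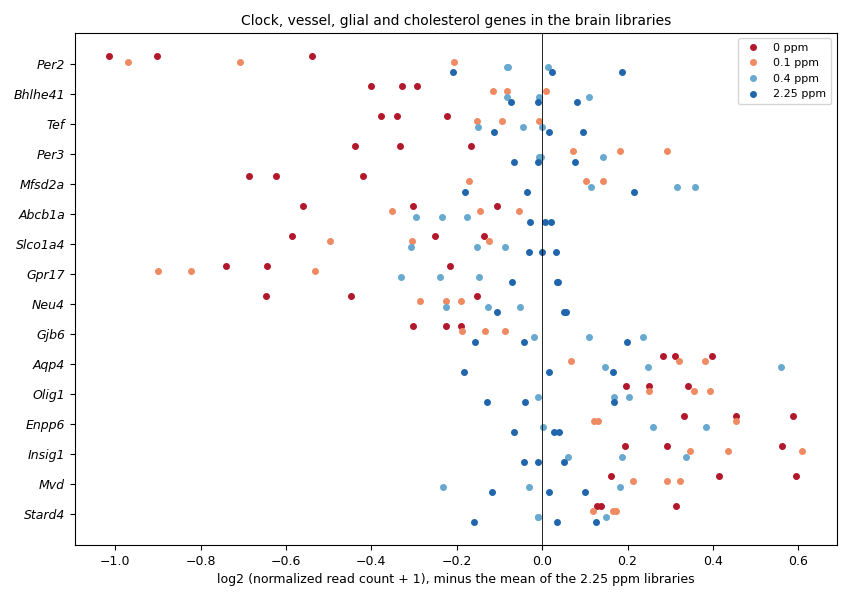
Log2(normalized read count + 1) of 16 genes in the brain libraries, minus the mean of the 2.25 ppm libraries of the gene, coloured by diet; within a row the diets run from 0 ppm at the top to 2.25 ppm at the bottom. The 16 are listed genes whose 0 and 2.25 ppm libraries did not overlap, so the separation of these diets is fixed by that choice. Among the genes shown, the 0 ppm points lie left of the 2.25 ppm points for clock and vessel genes (Per2 at -0.82 on average). They lie right of them for the cholesterol genes (Mvd at 0.39). Of all 20 clock, 16 endothelial and 20 cholesterol genes tested, 5, 3 and 5 separated in this way. None of the genes shown passed the test.

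Neuronal lists had small median log2 changes, most of their genes changed below 0, and 0 of their genes passed. Single genes reached 0.84 in the GABA receptor list and 0.59 in the glutamate receptor list. Negative changes were found for 13 of 15 pan-neuronal genes (median -0.07), 15 of 17 synaptic vesicle genes (-0.07), 13 of 17 GABA receptor genes (-0.09) and 13 of 22 glutamate receptor genes (-0.10), beside 10726 of all 20689 genes. The same held for 20 of 26 potassium channel genes (-0.09) and 13 of 18 calcium and sodium channel genes (-0.12). In each of these channel lists 2 genes lay wholly below at 0 ppm, beside 7.11% of all genes, and 1 potassium channel gene lay wholly above, beside 5.87%. Beside the same shares, 4 of 22 glutamate receptor genes lay wholly below and 2 above. For 15 pan-neuronal genes these counts were 2 and 0, for 17 GABA receptor genes 1 and 0, and for 17 synaptic vesicle genes 0 and 0. The summed synaptic vesicle list overlapped, at 108310 to 119834 at 0 ppm and 115876 to 121867 at 2.25 ppm. Kcna6, a delayed rectifier subunit, averaged 830.2 ± 47.7 at 0 ppm and 974 ± 48.0 at 2.25 ppm, and Cacna1h, a T-type calcium channel, 703 ± 79.6 at 0 ppm and 918 ± 96.2 at 2.25 ppm. Igf1r, the receptor of insulin-like growth factor, averaged 919 ± 31.2 at 0 ppm and 1117 ± 55.7 at 2.25 ppm (adjusted p = 0.291 in limma). The 13 genes encoded in mitochondrial DNA and the 43 nuclear genes of oxidative phosphorylation had medians of -0.02 and 0.02.

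Markers of brain regions varied widely between libraries of one diet. The summed cerebellar list was 29134 to 54095 at 0 ppm and 22316 to 47721 at 2.25 ppm, and the striatal list 16054 to 19763 at 0 ppm and 16531 to 27840 at 2.25 ppm. Of 20 cerebellar and 18 striatal genes, 0 had groups that did not overlap, beside 13% of all genes. Their medians were 0.54 and -0.33. Tph2, the enzyme that makes serotonin in the brain stem, was at 174, 135 and 73.5 at 0 ppm and 56.4, 74.1 and 14.4 at 2.25 ppm, and the serotonin transporter Slc6a4 at 115, 96.4 and 40.4 at 0 ppm, against 29.6, 45.1 and 9.34 at 2.25 ppm. Both overlapped between groups and were highest at 0.4 ppm in 1 library, at 226 and 131. How much of any single gene follows the share of a region in the tissue was not tested.

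Transcripts of other organs and of blood had some of the largest log2 changes. A total of 564 genes had a liver level 100 or more times that of brain, and 303 of these were tested in brain. Of the 303, 83 (27.4%) lay wholly above at 0 ppm, beside 5.87% of all genes, and 8 (2.64%) wholly below, beside 7.11%. A gene under 1 in every 2.25 ppm library was kept only if all its 0 ppm libraries reached 1. Such a gene, for example Cyp3a11 below, lies wholly above through the filter itself, so the share of 27.4% is partly set by it. Of the 20372 genes left without the 303 and the listed pituitary genes, 1128 (5.54%) lay above and 1464 (7.19%) below. In the list of plasma proteins and liver enzymes, drawn up with earlier results of these data known, 19 of 25 lay wholly above and 0 below. The median of these 25 was 1.496, but 0 were called. Their counts were low: Mup3, a major urinary protein with near-identical copies, was at 6.84, 9.04 and 7.28 at 0 ppm and 0.723, 1.41 and 0 at 2.25 ppm. Cyp3a11, a cytochrome P450, was at 7.6, 3.01 and 3.31 at 0 ppm and at 0 in each 2.25 ppm library, where 3 reads would give 1.99 to 2.28 at this depth. At 0.1 ppm Alb was 43.9 to 57.3, and at 0.4 ppm 47.5, 0 and 1.56, so a library at 0.4 ppm was on the side of 0 ppm.

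All 14 tested pituitary genes had positive log2 changes, with a median of 1.31, and library a of 0 ppm carried them: Pomc, the precursor of corticotropin, was at 6600, 63.3 and 47.0 at 0 ppm and 16.6, 48.0 and 30.2 at 2.25 ppm. Cga, the shared subunit of glycoprotein hormones, was at 853, 1.51 and 2.65 at 0 ppm, against 0, 1.41 and 1.44 at 2.25 ppm. Neutrophil transcripts were highest in library c of 0 ppm, with S100a8 at 26.6, 5.27 and 111 at 0 ppm and 6.51, 1.41 and 2.16 at 2.25 ppm, and Ngp at 22.8, 7.53 and 99.9 at 0 ppm, against 19.5, 2.12 and 3.59 at 2.25 ppm. None of these genes passed the test, and in each of them 1 library of 0 ppm was far above the others.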

How the data were processed

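Per the labels, TRIzol was used to extract RNA and the stranded TruSeq kit for total RNA to build libraries. RSEM 1.3.0 and STAR 2.5.2b appear among the submitters' processing notes, with the build mm10. The authors deposited a normalized signal per gene and library. In units of 1 read, every one of the 525456 values was whole to within 0.01, so reads could be recovered. The p-value column in the authors' deposited table matched an unadjusted equal-variance test of the values to within 1e-06 for 21611 genes, 1430 of them under 0.05.

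Values were tested as log2(value + 1) with limma 3.58.1 in R 4.3.3, with variances that follow the mean; the 12 brain libraries entered a single fit and Benjamini-Hochberg adjustment ran over all tested genes, with 0.05 as threshold. The tissue difference was fitted over all 24 libraries, on genes kept in both tissues. edgeR 4.0.16 on recovered reads was an alternative. Pseudocounts understate changes of low genes. Scripts were tested on simulated data. The 12 pairs of brain libraries that share a diet had a mean chi-square per gene from 4.01 to 20.0 (genes with at least 20 reads), more than read sampling alone gives, so none was treated as a library deposited a second time; this does not show that they come from separate animals. Columns carry no replicate number, and the letters a, b and c only follow column order.

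The members and the 57 gene lists were chosen with earlier results of these data known. Named genes were the 8 smallest p-values each way, since under 5 genes passed, the selenoproteins, the 4 smallest p of each list, Alb and the pituitary hormones. Predicted loci and symbols occurring more than once were not named.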

Additional observations from a re-analysis of the deposited data

Results flagged for a closer look

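The effect of 0 against 2.25 ppm in brain differed from that in liver, by a test of the difference itself in limma, for 12 of the genes named. Over all genes measured in both tissues it differed for 454 of 16915 (2.68%). Genes such as Serpina1e, Hist1h1c, Yif1a and Mfsd2a were named for a small p in the same brain contrast. Their brain values enter this test too, so the count of 12 is raised by that choice. The values are log2 changes in brain minus those in liver. Among selenoproteins the difference was 1.41 for Selenow, 1.37 for Gpx1, 0.81 for Selenoh and 0.59 for Selenop, each with the more negative change in liver; over 19 alternatives the adjusted p stayed at or below 4.87e-06 for Selenow and Gpx1 and 0.0304 for Selenop.

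The difference was 1.15 for the sterol regulator Insig1, with a brain value above 0 and a liver value below, and an adjusted p of at most 0.0216 over the alternatives. It was 0.81 for the linker histone Hist1h1c, 0.62 for Yif1a and -0.84 for the transporter Mfsd2a. The Mfsd2a call was lost in 7 of 19 alternatives, 6 of them without a single library, with an adjusted p of up to 0.0706 in limma.

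The remaining differences belong to liver transcripts, which are high in liver itself and low in the brain libraries: 3.33 for Serpina1e, 2.68 for Mup3, 2.69 for Cyp3a11 and 4.87 for Alb. The Alb call was lost in 12 of 19 alternatives, with an adjusted p of up to 0.118 in limma, and the Mup3 call with a pseudocount of 0.1 (adjusted p = 0.0924). The 0 ppm brain libraries held more liver transcripts as a whole (281 to 324 in the summed list without Ttr) than the 2.25 ppm ones (112 to 162), and their part in these 4 differences was not tested.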

How the results depend on the processing

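Fmo2 was called in all but 1 of 19 alternatives, with log2 changes of -1.59 to -1.48, and the count of called genes stayed at 1 except for 2 without a mean-variance trend, 0 with the 6 libraries alone and, leaving out a library, 1 to 3 (3 without library c of 0 ppm). The tissue difference called 454 genes, 860 at a threshold of 0.1, and 274 to 655 without single libraries (276 without library a of 0 ppm in brain, 299 and 274 without libraries a and b of 2.25 ppm in brain). Another scaling, by quantiles, moved the median of all genes by 0.01 on the log2 scale and turned the split of the tissue difference to 240 and 200, against 292 and 162; edgeR gave 240 and 191. The cause of these moves was not tested.

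Signs turned for selenoproteins whose intervals include 0. With the pituitary score as a covariate the log2 change was -0.24 for Gpx3, -0.0036 for Selenof, 0.12 for Selenon and -0.14 for Dio3. Without both pituitary-rich libraries, an alternative added after the data were seen, it was -0.0974 for Gpx3, 0.0822 for Selenon and -0.0363 for Dio3. Selenon gave 0.0048 in edgeR and Selenop 0.0053 after quantile normalization. Leaving out single libraries gave log2 changes of -0.359 to 0.0298 for Dio2, -0.0974 to 0.2322 for Gpx3 (-0.0421 without library c of 2.25 ppm), -0.171 to 0.0822 for Selenon (0.0033 and 0.0164 without library b of 0 ppm and c of 2.25 ppm), -0.1317 to 0.0107 for Selenop, -0.0725 to 0.1325 for Txnrd2 and -0.2484 to 0.5457 for Dio3 (-0.0516 for Txnrd2 and -0.1341 for Dio3 without library a of 2.25 ppm). Brain minus liver of Fmo2 ran from -0.5755 to 0.0398 without single libraries. The remaining alternatives of single genes kept their sign.

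No paired analysis was possible because the columns carry no replicate number. Depth limits genes near 3 reads, such as Pnpla1, Apoo-ps and Cyp3a11.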
